A study of Sus scrofa with 6 samples.

Results

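The genes described here code for complement components that the uterus can make itself: C1QA, C1QB and C1QC, the chains of C1q, C1R and C1S, its proteases, C2 and CFB, the proteases of the convertases, C3, on which all routes of activation meet, and C5 and C7 of the terminal route. The members were taken by name, as every probe set whose gene symbol in the array's annotation is one of these 10 genes. That rule uses no measured value, though the genes were chosen with earlier results of these data known. The annotation names 9 of the 10, with 11 probe sets among the 23999 tested, and C1QB is not analysed here. C7 and CFB have 2 probe sets each, and the others have 1. The study placed spermatozoa in 1 oviduct of each weaned crossbred sow (Landrace x Large White) and only diluent in the opposite oviduct, and on day 6 after insemination the epithelial layer near the tip of both uterine horns was scraped off for RNA. The horn of the inseminated side held blastocysts (embryos) and the other held unfertilized oocytes, so the groups share the animal, its hormones, the anaesthesia and the surgery. There were 3 sows, 1 Affymetrix porcine array for each horn and thus 3 arrays for each group. The inseminated side also received the spermatozoa, so an effect of embryos and one of sperm cannot be told apart. The comparison asks whether complement transcripts differed in the horn with embryos.

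Complement is a cascade of plasma and tissue proteins that tags cells and debris for uptake, attracts leukocytes and can make pores in membranes. In the classical route C1q binds its target and activates C1r and then C1s, which cuts C4 and C2 into a convertase, while in the alternative route factor B, the product of CFB, forms the convertase with C3b. Each convertase cuts C3, and further on C5 is cut and C5b assembles with C6, C7, C8 and C9. Much of the plasma pool comes from the liver, yet macrophages are a known source of C1q, fibroblasts make C1r and C1s, and uterine epithelium secretes C3, in rodents under oestrogen. C1QA, C1QC and C1QB lie next to each other in the pig genome, as do C1R and C1S, and C2 and CFB, with 0 protein-coding genes between them in the current RefSeq gene table for Sscrofa11.1.

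The values are array signals in arbitrary units on a linear scale, as the authors deposited them, and fold changes are differences of log2 signals normalized between arrays, with positive values where embryos were higher. The median signal of an array ran from 30.6 to 35.8, and 25.4% to 29.0% of its signals lay under 10. C3, C1QC, C1S and C1R were brighter on average than the median probe set, while the other 7 probe sets (C1QA, C2, C5 and both of C7 and CFB) lay below it. Detection calls were not used here, so whether the dim ones were above background is not known. Of all genes, each at its brightest probe set, 4847 of 6765 were above the median signal. Of 10 epithelial markers named on the array 9 were, led by KRT8, EPCAM, KRT19 and CDH1. But so were 10 of 11 markers of fibroblasts and stroma, led by SPARC, VIM, DCN and LUM, and the scrapings thus held more than epithelium. The ratio of 5' to 3' signal of the GAPDH control transcript, a measure of how intact and fully copied the RNA was, was 0.355, 0.20 and 0.226 with oocytes in sows 1, 2 and 3 and 0.243, 0.130 and 0.199 with embryos, lower with embryos in each sow.

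C3, the central component, was measured at 158, 88.1 and 80.0 with oocytes in sows 1, 2 and 3 and at 174, 159 and 123 with embryos. In every sow the horn with embryos had the higher signal, with ratios of 1.10, 1.81 and 1.54, but the groups overlapped because the horn with oocytes of sow 1 lay above the horn with embryos of sow 3. Oocyte horns averaged 109 ± 42.7 (SD, n = 3 sows) and embryo horns 152 ± 26.3, 0.53 apart on the log2 scale (standard error, SE, 0.27). The difference did not pass the test of limma (unadjusted p = 0.0849, the 1339th smallest of 23999, adjusted p = 1.00). With the sow as a block the SE was 0.14 and the unadjusted p was 0.00437 (297th smallest of 23999), and the adjusted p of 0.353 again did not pass. The 95% interval of the fold change ran from 0.939 to 2.23 without the block and from 1.16 to 1.81 with it. Without the oocyte array of sow 1 the log2 fold change was 0.84, and without the oocyte array of sow 3 it was 0.34. These fits had no block and kept the embryo array of the same sow, so differences between sows enter them. Within sows 1, 2 and 3 the log2 difference was 0.13, 0.86 and 0.61. In tissue RNA of this kind, a change in the number of cells of a type and a change in RNA per cell cannot be told apart. Of 10 macrophage and monocyte markers on the array 9 had a log2 fold change above 0, where 52.2% of all genes did, and their summed signal was 433 to 498 with oocytes and 501 to 645 with embryos. The ratio of these sums was 1.29, 1.25 and 1.16 in sows 1, 2 and 3. LGMN, a lysosomal protease, made up most of the sum, with 298, 233 and 272 in the oocyte horns. The ratio of LGMN alone was 1.29, 1.24 and 1.08. FCGR1A and SIGLEC1 of that list were under 10 on every array. The summed signal of the 10 epithelial markers, by contrast, was 0.969, 0.976 and 1.07 times that of the oocyte horn in the 3 sows. Of 7 lymphocyte markers 2 had a log2 fold change above 0, and their summed signal was 0.827, 0.832 and 1.21 times that of the oocyte horn. The part of cell content and of RNA quality in the result for C3 was not tested.

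**Figure D1:**
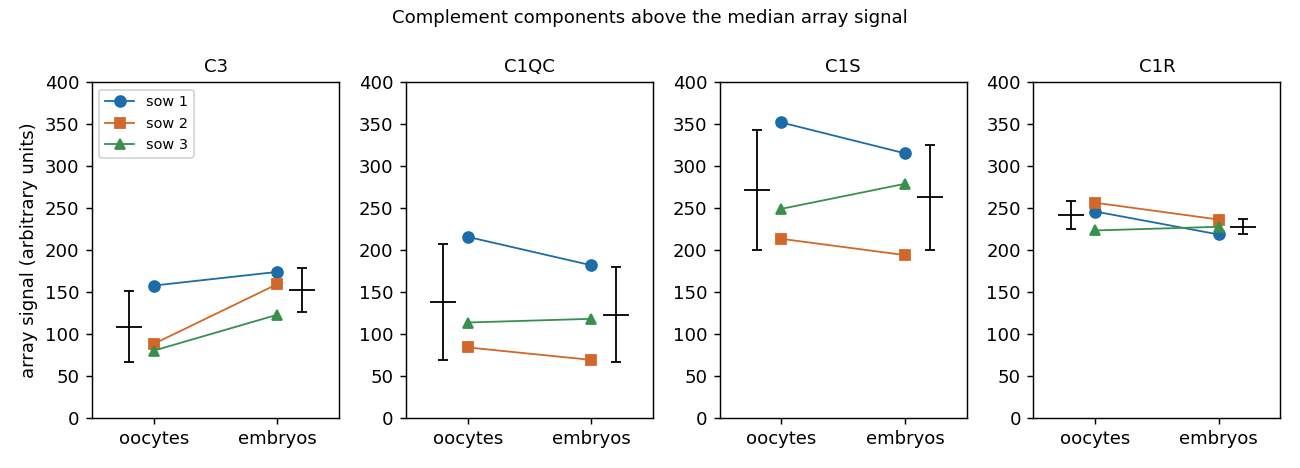
Signals of the 4 brighter complement genes in both horns (y axis: array signal in arbitrary units, starting at 0; x axis: group). Lines connect the oocyte and embryo horn of a sow, symbols tell the sows apart, and the black mean ± SD is over 3 sows. C3 rises from oocytes to embryos in all 3 sows, while C1QC and C1S stay ordered by sow (sow 1 highest, sow 2 lowest) and C1R keeps between 219 and 256.

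The C1 complex did not show such a shift. C1R, the protease that C1q activates first, had 246, 256 and 223 with oocytes and 219, 236 and 228 with embryos. All 6 arrays lay close together, and the ratio was 0.889, 0.922 and 1.02 in the 3 sows. Its log2 fold change was -0.09 (SE 0.12, limma, unadjusted p = 0.484), and the 95% interval of the fold change was 0.770 to 1.14. C1S, the protease that cuts C4 and C2, had 352, 213 and 249 with oocytes and 315, 194 and 279 with embryos. It was lower with embryos in sows 1 and 2 and higher in sow 3, with a log2 fold change of -0.05 (SE 0.25, limma, unadjusted p = 0.847). C1QC, the C chain of C1q, had 216, 83.8 and 114 with oocytes and 182, 68.9 and 118 with embryos. The sows differed far more than the horns did, and the log2 fold change of -0.16 (SE 0.41, or 0.12 in the blocked fit) had an unadjusted p of 0.703 from limma (0.20 with the block). For C1S and C1QC the interval of the fold change ran from 0.655 to 1.43 and from 0.465 to 1.72, and narrowed to 0.831 to 1.12 and to 0.743 to 1.07 with the block. C1QA, the A chain, was dim, with 27.0, 23.9 and 14.1 against 28.2, 16.5 and 24.5. The horn with embryos was close to level in sow 1, lower in sow 2 and higher in sow 3 (log2 fold change 0.09, SE 0.35).

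C2, the protease that joins C4b in the classical convertase, had the largest fold change of the 11 probe sets as fitted, though not with 32 added to each signal, where C3 (log2 fold change 0.41) lay above C2 (0.34). It read 2.8, 1.3 and 3.7 with oocytes and 15.7, 10.2 and 10.0 with embryos, so the groups did not overlap. It was the 1 member probe set of 11 for which all embryo signals lay above all oocyte signals, where 3.98% of all probe sets did so. Oocyte horns averaged 2.60 ± 1.21 (SD, n = 3 sows) and embryo horns 11.97 ± 3.24, and the log2 fold change was 2.27 (SE 0.60). By limma its unadjusted p was 0.00467, the 37th smallest of 23999, and its adjusted p was 1.00 (0.405 with the sow as a block), so that it did not pass. All 6 signals of C2 lay below the median of their array, with the mean signal at percentile 19.9 of all probe sets. With the 32 added, limma gave an unadjusted p of 0.00158.

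CFB, the neighbour of C2 and its counterpart in the alternative route, gave no common direction. Probe set 1 had 9.4, 20.5 and 10.5 with oocytes and 11.6, 20.3 and 13.0 with embryos. On it sow 2 was highest in both horns, and the log2 fold change was 0.18 (SE 0.49). Probe set 2 had 8.6, 15.5 and 14.8 with oocytes and 18, 9.9 and 4.9 with embryos, higher in sow 1 and lower in sows 2 and 3, with a log2 fold change of -0.41 (SE 0.56). Both were dim, and neither differed by more than the spread between arrays (unadjusted p = 0.722 and 0.486 from limma).

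In the terminal route C7, which anchors the forming pore in the membrane, was higher with embryos in all 3 sows on both of its probe sets. Probe set 1 had 17.5, 1.3 and 18.4 with oocytes and 28.2, 13.0 and 29.7 with embryos, 1.55 higher on the log2 scale (SE 0.95, limma, unadjusted p = 0.140, and 0.0256 with the sow as a block). Probe set 2 had 16.5, 2.3 and 6.8 with oocytes and 20.3, 6.6 and 10.6 with embryos, 0.80 higher on the log2 scale (SE 0.73, limma, unadjusted p = 0.305, and 0.177 with the block). Neither passed after adjustment (smallest adjusted p = 0.505, with the block). The oocyte array of sow 2 was the lowest on both probe sets, and without it the log2 fold changes were 0.31 and 0.08. Those fits had no block and kept the embryo array of sow 2, the lowest embryo array on both probe sets. Within sows 1, 2 and 3 the log2 difference was 0.63, 3.4 and 0.62 on probe set 1. On probe set 2 it was 0.25, 1.61 and 0.55. C5, whose cleavage starts pore formation, stayed under 10 on all 6 arrays, with 3.5, 1.5 and 4.9 with oocytes and 8.9, 6.5 and 0.5 with embryos. Its direction was not the same in the 3 sows, and its log2 fold change of 0.02 had a standard error of 1.13.

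**Figure D2:**
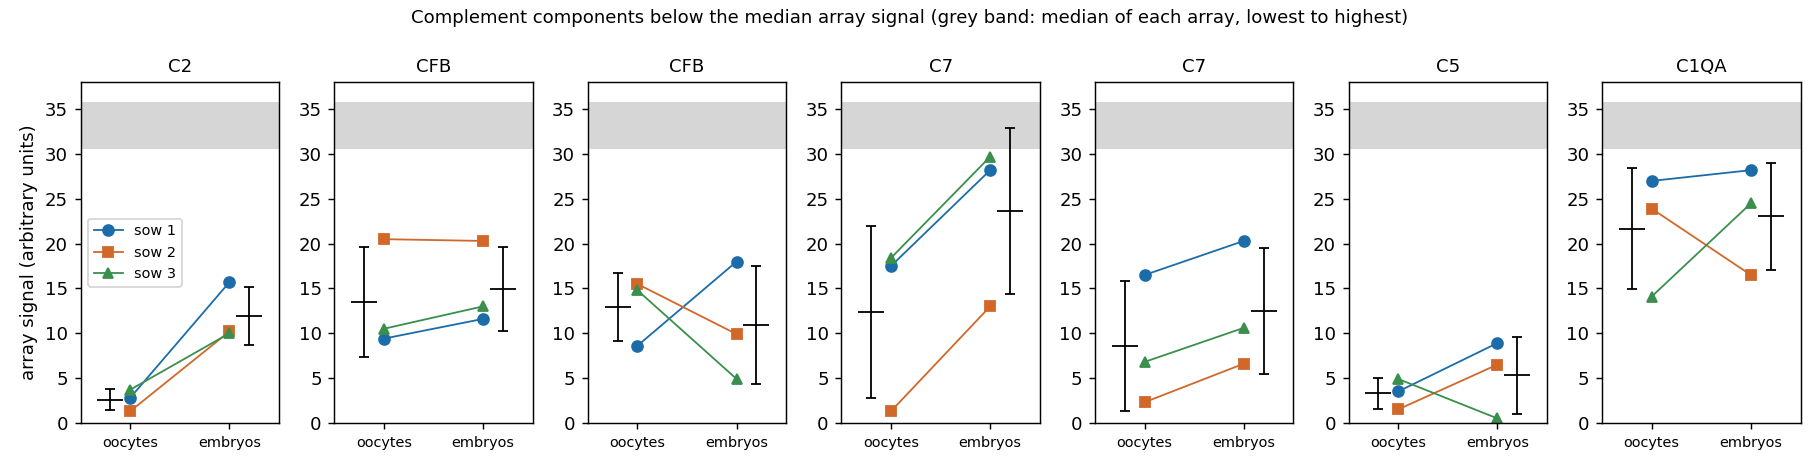
Signals of the 7 dimmer complement probe sets in both horns (y axis: array signal in arbitrary units, starting at 0; x axis: group). Lines and symbols mark the sows, the mean ± SD in black is over 3 sows, and the grey band spans the medians of the 6 arrays. The C2 signals with embryos all lie above those with oocytes, and both C7 probe sets rise in each sow. CFB probe set 2 (18, 9.9 and 4.9 with embryos), C5 and C1QA change in different directions.

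Of the 11 probe sets 0 had a limma adjusted p under 0.05, as was the case over the whole array (0% of 23999). At an unadjusted p under 0.05 there was 1 of 11 (C2), where 2.88% of all probe sets were. With the sow as a block there were 3 of 11 (C2, C3 and C7 probe set 1), where 8.70% of all probe sets were, and all 3 were higher with embryos, where 3.75% of all were. A total of 5 of the 11 were higher with embryos in all 3 sows (C2, C3, both of C7 and CFB probe set 1), against 14.9% of all probe sets, and 0 were lower in all 3, against 14.8%. With the values as deposited CFB probe set 1 was no longer among them, with a ratio of 0.990 in sow 2. The median log2 fold change was 0.09 over the 11 and 0.01 over the array. The probe sets of C7, like neighbouring genes, are not independent of each other. The members were chosen with earlier results of these data known, so these counts are a description.

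**Figure D3:**
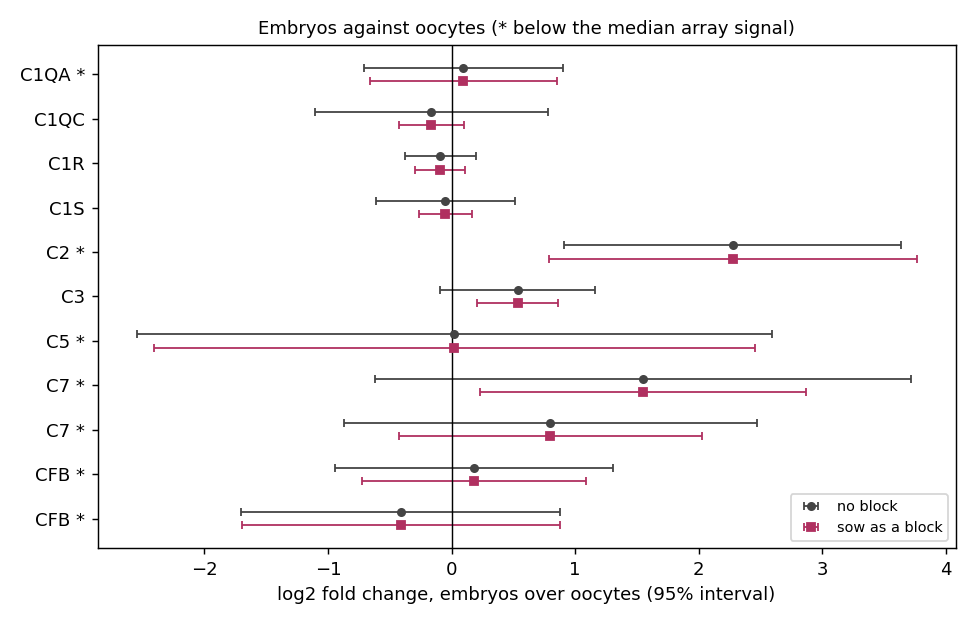
Log2 fold change of embryos over oocytes (x axis) for the 11 complement probe sets, with 95% intervals from limma without a block (dark circles) and with the sow as a block (red squares). The interval of C3 spans 0 without the block and lies above 0 with it, the intervals of C1R and C1S with the block are the narrowest around 0, and that of C5 is the widest.

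The sows differed for C1QC, C1S and C3. In a model of group and sow, the sow term of C1QC passed with limma (adjusted p = 0.000910), as did that of C1S (adjusted p = 0.00780) and, at the edge, that of C3 (adjusted p = 0.0490). This is 3 of 11 probe sets, where 11.3% of all probe sets passed. Averaged over both horns, the C1QC signal was 199, 76.4 and 116 in sows 1, 2 and 3, a span of 2.60 times. The C1S signal was 334, 204 and 264, a span of 1.64 times, in the same order of the sows. For both genes the horns of sow 1 lay above all other horns and those of sow 2 below them. C3 had 166, 124 and 101, with sow 3 and not sow 2 lowest, and its horns in sow 2 lay further apart than these sow means. The sow term of the 2 probe sets of C7 did not pass (adjusted p = 0.0844 and 0.180), although sow 2 read lowest on both in each horn. C1R, next to C1S in the genome and its partner in the complex, had 232, 246 and 226 (adjusted p = 0.731 for the sow), though its difference from C1S in this respect was not tested. C1QA, dim as it is, did not pass either (adjusted p = 0.760). The call for C3 was lost in several settings (adjusted p = 0.0514 with the values as deposited, and 0.101 with arrays scaled to the same median). Without a variance trend no probe set of the array passed for the sow, with 0.266 for C1QC and 0.317 for C1S.

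Stromal and epithelial markers differed between the sows as well, in opposite directions. Of 11 fibroblast and stroma markers 8 passed for the sow with limma, where 14.9% of all genes with 1 probe set each did. Their summed signal was 12900 and 12240 in the horns of sow 1, 7283 and 7202 in sow 2 and 9370 and 10090 in sow 3, which is the order of C1QC and C1S. This order of the sows was found for 9 of the 11 stroma markers, for 7 of 8 endothelial markers, for 1 of 10 macrophage markers and for 0 of 10 epithelial markers, and for 20.0% of all genes. It was looked for after the values of C1QC had been seen. Of the 10 epithelial markers 4 passed for the sow, and all 10 summed to 8535 and 8267 in sow 1, against 10810 to 11530 in sows 2 and 3, and the smooth muscle markers, all 5 highest in sow 1, to 2273 and 1550 in sow 1 and 561 to 1015 in the others. Macrophage markers summed to 498 and 645 in sow 1, 440 and 550 in sow 2 and 433 and 501 in sow 3, and 0 of 10 passed for the sow. The ratios of 5' to 3' signal of GAPDH and of actin were also highest in sow 1 and lowest in sow 2 within each group. The part of cell content and RNA quality in the differences between sows was not tested.

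**Figure D4:**
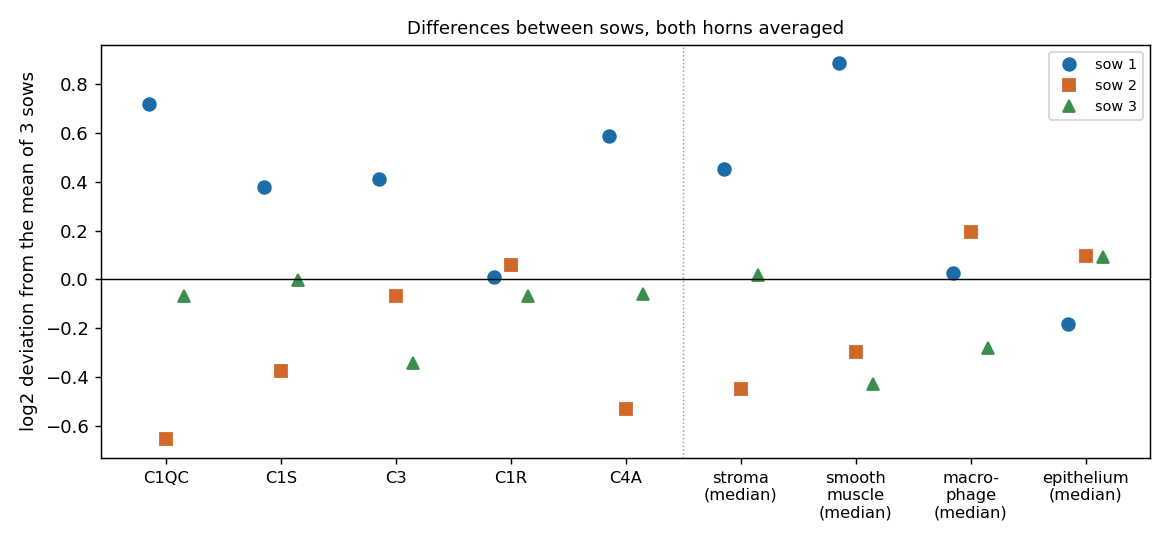
Log2 deviation of each sow from the mean of the 3 sows (y axis), both horns averaged, for C1QC, C1S, C3, C1R and C4A and for the median of 4 marker lists; symbols mark the sow. C1QC, C1S, C4A and the stroma markers share the order of sow 1, sow 3 and sow 2, C1R lies near 0 in each sow, and the epithelial median is lowest in sow 1.

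The other genes of the pathway give the setting for these members. Of 54 complement genes listed by role, 34 are named on the array, the 9 members included, each read at its brightest probe set. With the sow as a block 7 of the 34 had an unadjusted p under 0.05, all higher with embryos, where 3.62% of all genes were, and 0 passed an adjusted p of 0.05. Beside C2, C3 and C7 these were C4A, C8A, ITGB2 and CALR. CFP, not among them, had a log2 fold change of 0.16 at its brightest probe set (limma, unadjusted p = 0.571 with the block). At its dimmer probe set it had 1.10 (limma, unadjusted p = 0.0277 with the block). A total of 28 of the 34 had a log2 fold change above 0, against 52.2% of all genes, and 14 were higher in all 3 sows, against 15.0% of all. The median log2 fold change was 0.32, against 0.0088 over all genes. Of the 34, 15 were above the median signal, where 4847 of 6765 genes were. The 54 genes hold the members and were listed with earlier results of these data known, so these counts are a description.

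Among initiators C4A, the fourth component that C1s cuts, had 181, 83.2 and 109 with oocytes and 210, 96.7 and 145 with embryos. It was higher with embryos in each sow and had the same order of sows as C1QC (log2 fold change 0.27, SE 0.34, limma, unadjusted p = 0.447 and 0.0317 with the block). C8A, a subunit of the pore, was dim, with 8.3, 2.0 and 1.7 against 11.5, 12.3 and 7.8 (log2 fold change 1.74, SE 0.68, limma, unadjusted p = 0.0327). Of the receptors, ITGB2, the beta chain of complement receptors 3 and 4 on leukocytes, had 27.8, 49.8 and 35.6 with oocytes and 41.2, 62.2 and 50.0 with embryos (log2 fold change 0.45, SE 0.31, limma, unadjusted p = 0.180 and 0.0373 with the block). CALR, a chaperone that also binds C1q at the cell surface, had 59.8, 78.2 and 102 against 103, 85.1 and 125 (log2 fold change 0.40, SE 0.24, limma, unadjusted p = 0.130 and 0.0252 with the block). All 4 were higher in each sow, and none passed after adjustment. Of 9 regulators on the array, each at its brightest probe set, 0 had an unadjusted p under 0.05 with or without the block. CD55, which breaks up the convertases and is the complement gene that the study lists, has 5 probe sets, with log2 fold changes from -0.41 to 0.25. The brightest had 132, 298 and 131 with oocytes and 141, 306 and 138 with embryos (0.07, SE 0.39), and that of the study's list had 166, 241 and 172 against 146, 179 and 132 (-0.33, SE 0.19, limma, unadjusted p = 0.117 and 0.00790 with the block). The study chose that probe set on the same arrays.

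**Figure D5:**
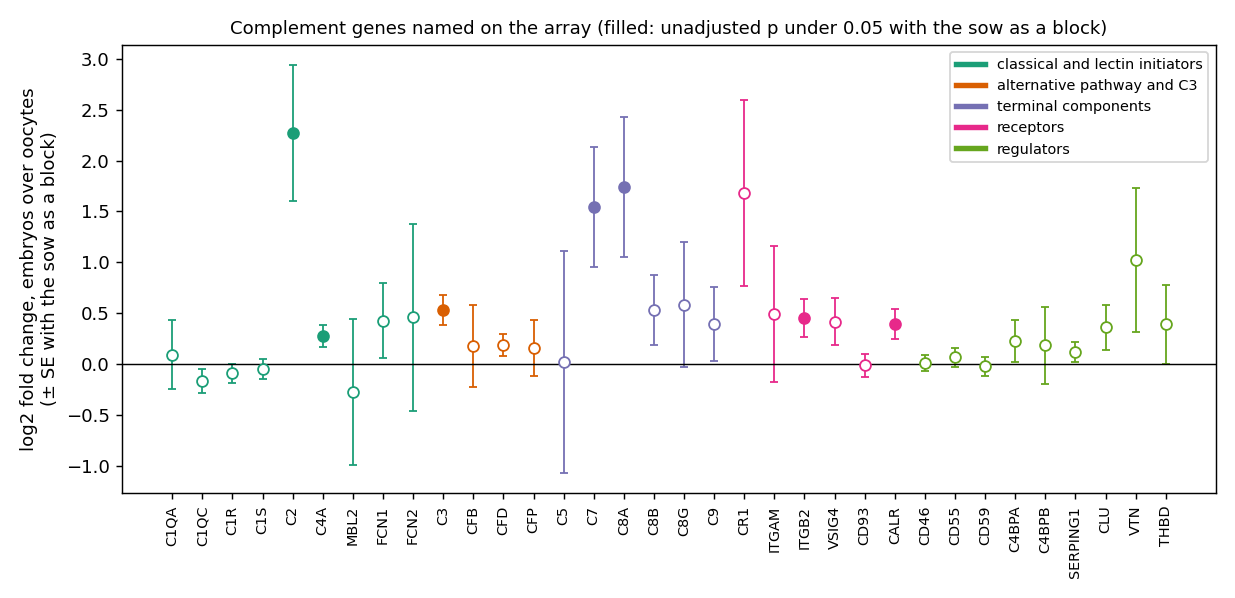
Log2 fold change of embryos over oocytes (y axis) for the 34 complement genes named on the array, 1 probe set per gene, coloured by role, with the standard error from limma with the sow as a block; filled points had an unadjusted p under 0.05 in that fit. The 7 filled points all lie above 0, the C1 genes C1QA, C1QC, C1R and C1S lie within 0.17 of 0, and the error bars are long for dim genes such as C5, FCN2 and CR1.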

How the data were processed

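RNA from 6 uterine horns was hybridized to 6 Affymetrix Porcine Genome arrays. The authors deposited intensity signals per probe set on a linear scale, made with Microarray Suite (MAS5) 5.1 per the labels and scaled to the same trimmed mean on each array; the Lowess step and the mixed model on single probes of the methods are not in these values. Signals under 0.1 were set to 0.1, put on a log2 scale and normalized by cyclic loess. After removal of 124 control probe sets, 23999 probe sets were tested across the whole array with limma 3.58.1 in R 4.3.3 (group only, variance trend, Benjamini-Hochberg adjustment at 0.05), with the sow as a block beside it. The sow was tested as an F test in the model of group and sow. The fits were tested on simulated data.

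Symbols were those of the array annotation, and all 11 agree in gene identifier and symbol with the current gene table. The arrays were paired by the replicate number of the labels: the ratios per animal that the methods print for the MAL probe sets equal those of arrays with the same number, and deviations from the group means correlated at 0.207, 0.173 and 0.100 within sows. The members and lists were chosen with earlier results of these data known, and the order of sows was examined after seeing values. The probe set with the highest mean signal stood for a gene in lists. Named are all member probe sets, complement genes at an unadjusted p under 0.05 in either fit, CD55, and up to 4 of the brightest markers of a list. MARCO, ALB, IRF1, NFKBIA, IL1B, FCN2, CR1 and the genes named as under 10 on every array were chosen after their values were seen. As alternatives, arrays were left unnormalized, quantile normalized or brought to a common median, 32 was added to every signal, the floor was set to 1, and probe sets above the median were kept; the variance trend was dropped, the sow was a block, the probe sets of a gene were averaged, or each array was left out. Arrays have no sequencing depth, and 3 per group limit the precision.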

Additional observations from a re-analysis of the deposited data

How the results depend on the processing

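No member passed an adjusted p of 0.05 for embryos against oocytes under any alternative. The count at an unadjusted p under 0.05, 1 of 11, became 3 with the replicate block, 0 of 4 with only probe sets above the median signal and 1 to 2 when arrays were left out in turn. In those 4 probe sets 1 was higher in all 3 sows, and 1 of the 11 (C1R) was lower in all 3 after scaling to the same median. The 3 members that differed between sows became 0 without a variance trend and 1 to 4 when arrays were left out. C1QC alone passed without the oocyte array of sow 1. Over 149 refits, the averages of the probe sets of C7 and of CFB included, 136 kept their direction and 13 changed sign. Of the 13, 12 arose when 1 array was left out. The log2 fold changes then ran from -0.50 to 0.22 for C1QC, -0.21 to 0.17 for C1S, -0.17 to 0.26 for C1QA, -0.67 to 1.32 for C5, -0.13 to 0.55 for CFB probe set 1 and -0.79 to 0.063 for CFB probe set 2. The adjusted threshold tells nothing here, since no probe set of the array passed it in any setting. At an unadjusted p under 0.05 from limma, C3 passed in 2 of 14 refits and C7 probe set 1 in 1 of 13. Only 1 refit of each had the sow as a block, and both passed in it (limma, unadjusted p = 0.00437 and 0.0256). The mean of both CFB probe sets was -0.12. C3, C2, both C7 probe sets and C1R changed sign in none. Each fit with 1 array left out had no block and kept the other horn of that sow, so differences between sows entered its fold change. The part of this in the changes of sign was not tested. Beyond the calls named, the replicate block changed no call at the adjusted threshold. Signals under 10, as for C5 and for C2 with oocytes, have large relative errors on 3 arrays per group.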

Other observations

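Genes that respond to interferon gamma or belong to the acute phase response, among which CFB, C2 and C3 are often counted, were read beside the complement genes. Of 14 on the array 12 had a log2 fold change above 0 (52.2% of all genes), with a median of 0.09, 3 were higher with embryos in all 3 sows (IRF1, NFKBIA and IL1B, against 15.0% of all genes) and 0 had an unadjusted p under 0.05 with limma, with or without the block. Among markers of macrophages MARCO, a scavenger receptor, had 11, 8.2 and 4.0 on the oocyte side of sows 1, 2 and 3 and 28.3, 19.3 and 14.5 on the embryo side, without overlap (log2 fold change 1.47, SE 0.49, limma, unadjusted p = 0.0154). LGMN had 298, 233 and 272 against 384, 288 and 294 (0.26, SE 0.17, limma, unadjusted p = 0.168 and 0.0153 with the block). Neither passed after adjustment.

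Markers of neutrophils were dim, with 0 of 6 above the median signal, where 4847 of 6765 genes were. Their summed signal was 35.5 to 50.6 with oocytes and 57.4 to 76.9 with embryos. LTF held part of that gap, with 8.4, 13.8 and 3.5 with oocytes and 13.0, 35.9 and 10.4 with embryos. S100A9, the brightest of the 6, had 10.7, 18.3 and 8.3 with oocytes and 15.0, 23.5 and 4.9 with embryos (log2 fold change 0.01, SE 0.65). Of the 6, 5 had a log2 fold change above 0 and 2 were higher in all 3 sows. S100A12 was higher only in sow 3, and ELANE had a log2 fold change of -0.39 (SE 0.64). The sums were not tested. Among hepatocyte markers ALB was at most 11.9 on every array, while APOA1 had a mean of 241 with oocytes and 243 with embryos.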
